A study of Mus musculus with 8 samples.

Results

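The miR-199 and miR-214 miRNAs were measured in the kidneys of db/db mice and control mice by 5 rows of a mouse miRNA microarray: mmu-miR-199a-5p, mmu-miR-199a-3p, mmu-miR-199b-5p, mmu-miR-214-3p and mmu-miR-214-5p. They were chosen by name, as the rows of the scanner files with these gene names, and make up 5 of the 1881 mouse miRNAs on the array. The db/db group held 4 kidney samples from mice of strain C57BLKS/J Iar -+Leprdb/+Leprdb, which are homozygous for a mutation of the leptin receptor and become obese and diabetic. The control group held 4 kidney samples of strain C57BLKS/J Iar -m+/m+, where m stands for the misty coat colour allele. All 8 were from males at 28 weeks of age, and 1 array was run per sample. The sample titles call the controls dbm and the source labels call them m/m, so whether they carried a db allele was not settled. The labels do not state that each sample is a separate animal, so the spread behind each p-value is that between these samples and may be technical.

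A miRNA is cut from a hairpin precursor, whose arms are called 5p and 3p, and lowers the output of mRNAs that pair with its seed, bases 2 to 8. In mice and humans, miR-199a and miR-214 are processed from Dnm3os, a long noncoding RNA made from the strand opposite the dynamin gene Dnm3. Dnm3os is known for expression in mesenchymal tissue during development and in fibroblasts, and miR-199 and miR-214 have been studied as promoters of fibrosis in the injured kidney. Further copies of the miR-199 hairpin lie in other dynamin genes. In the RefSeq annotation (GRCm38.p6), Mir199a-2 and Mir214 lie within Dnm3os on chromosome 1, with 5444 bases between the hairpins. Mir199a-1 lies within Dnm2 on chromosome 9 and Mir199b within Dnm1 on chromosome 2.

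The mature sequences show which precursor each row can report on. They are given 5′ to 3′ from RefSeq (GRCm38.p6), with the seed in capitals. The table held 4 of the 5 miRNAs, all except mmu-miR-199b-5p.
mmu-miR-199a-5p: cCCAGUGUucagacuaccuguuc
mmu-miR-199a-3p: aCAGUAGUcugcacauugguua
mmu-miR-214-3p: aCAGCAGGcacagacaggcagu
mmu-miR-214-5p: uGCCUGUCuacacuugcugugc
No seed is shared among these 4. The sequence of mmu-miR-199a-5p is that of 2 loci, Mir199a-1 and Mir199a-2, and the sequence of mmu-miR-199a-3p is that of 3, since mmu-miR-199b-3p is identical to it. The array has no row of its own for mmu-miR-199b-3p. Apart from that copy, the RefSeq mature sequences held 1 other miRNA with one of these seeds, mmu-miR-761. It shares the seed of mmu-miR-214-3p and was detected on none of the 8 arrays. Of the 1881 array names, 1608 were found in that table, and mmu-miR-199b-5p was not, so this search could not cover it. Its 22-base array probe ends in acactgg, the reverse complement of CCAGUGU, the seed of mmu-miR-199a-5p. If mmu-miR-199b-5p pairs with that probe in full, it carries the bases of this seed. Their position in mmu-miR-199b-5p was not read from a mature sequence.

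The array reads a miRNA through DNA probes that pair with its 3′ end. The longer probe of mmu-miR-199a-5p and that of mmu-miR-199b-5p are shown 5′ to 3′ because these paralogs have nearly the same sequence. The base that differs is in capitals.
mmu-miR-199a-5p probe: gaacaggtagtctGaacac
mmu-miR-199b-5p probe: gaacaggtagtctAaacactgg
Over the 19 bases compared they differ by 1 base, G14A, counted from 1 at the 5′ end of the probe, with the miR-199a-5p base first. Each can therefore pair with the other miRNA with 1 mismatch, and how much signal crosses between them was not tested. The probes of mmu-miR-199a-3p match mmu-miR-199b-3p in full, so its signal is a sum over all 3 loci. In the array design those probes map to chromosome 2, 32174047 to 32174065, and the probes of mmu-miR-199b-5p to chromosome 2, 32174007 to 32174027 (both mm9). Coordinates are printed as the files list them, where each span is 1 base shorter than its probe. The probes of mmu-miR-199a-5p are listed as unmapped. The probes of mmu-miR-214-3p are short.
mmu-miR-214-3p probe: actgcctgtctgt
This is the longer of its 2 probes, with 13 bases that pair with bases 10 to 22 of the miRNA, and it maps to chromosome 1, 164153579 to 164153590 (mm9). No other mature sequence in the RefSeq table is fully complementary to it.

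The 8 arrays shared 1 slide and 1 scan, with the db/db samples in slide row 2 and the controls in slide row 1, so row and genotype cannot be told apart. Some signal above background was seen for 390 miRNAs, and 269 were detected on every array. Signals were scaled so that each array had the same 75th percentile over those 269, and are given below as scaled signal in arbitrary units. A miRNA was tested, with limma on the log2 scale, if either group had it detected on each of its 4 arrays, which 316 met, and a miRNA was called at a Benjamini-Hochberg adjusted p under 0.05. Of these, 55 were called lower and 77 higher in db/db kidneys, and the median change of all 316 was -0.02. Correlations of log2 signal across tested miRNAs, which are not independent replicates, were 0.989 to 0.997 within a group.

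Of the 5 miRNAs, 4 were detected on all 8 arrays and 1, mmu-miR-214-5p, on none. The 3 that fell in db/db kidneys were mmu-miR-214-3p, mmu-miR-199a-3p and mmu-miR-199a-5p, to between 0.739 and 0.798 times their control levels. The paralog mmu-miR-199b-5p was also lower on average but did not pass the test, and none of the 5 was called higher. Over all tested miRNAs, 17.4% were called lower and 24.4% higher. Counts of called miRNAs depended on the scaling: 58.3% of called miRNAs were higher as reported, against 78.1% with no scaling, 83.2% with scaling to labelling spike-ins and 46.9% with quantile normalization.

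The 3p arm of Mir214, mmu-miR-214-3p, had scaled signals of 52.6, 60.2, 51.6 and 54.9 in db/db replicates 1 to 4, against 83.8, 73.5, 67.2 and 72.6 in control replicates 1 to 4. Every db/db sample lay below every control sample. On the log2 scale it was 5.77 ± 0.10 in db/db kidneys and 6.21 ± 0.13 in control kidneys (SD, n = 4 each). The change of -0.44 ± 0.08 (SE), with a 95% interval from -0.62 to -0.25, corresponds to a level in db/db kidneys of 0.739 times that in controls (adjusted p = 0.00292, limma). Its 2 probes gave changes of -0.46 ± 0.11 and -0.43 ± 0.07 (SE, log2), and with each probe alone the groups did not overlap. The change was smaller with normexp background correction (-0.25, adjusted p = 0.00378) and with spike-in scaling (-0.26, adjusted p = 0.00783, limma).

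The other arm of the same hairpin, mmu-miR-214-5p, was at background in both groups. Its mean processed signal, before scaling, lay between -2.25 and 0.187 on the db/db arrays and between -2.65 and 0.193 on the control arrays. None of the spots of its 4 probes was well above background on any array. It was not tested and no fold change is given. Its row therefore gives no second reading of the Mir214 hairpin.

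For mmu-miR-199a-3p, the brightest of the rows and the one with 3 source loci, the scaled signals were 573.6, 617, 580 and 606 in db/db replicates 1 to 4, against 874, 800.1, 730 and 777 in control replicates 1 to 4. The groups were well apart: the highest db/db sample was below the lowest control. Log2 signal was 9.21 ± 0.05 in db/db kidneys and 9.63 ± 0.11 in control kidneys (SD, n = 4 each). The change was -0.42 ± 0.06 (SE; 95% interval -0.56 to -0.28), a level of 0.748 times the control one (adjusted p = 0.00101, limma). Its 2 probes gave -0.43 ± 0.06 and -0.41 ± 0.06 (SE, log2). With spike-in scaling the change was -0.24 and stayed called (adjusted p = 0.00872, limma).

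The 5p arm of the Mir199a hairpins, mmu-miR-199a-5p, had scaled signals of 128, 137, 122 and 135 in db/db replicates 1 to 4, against 189, 165, 144 and 159 in control replicates 1 to 4. The groups did not overlap, but control replicate 3, the lowest control, lay close to db/db replicate 2. Log2 signal was 7.03 ± 0.08 in db/db kidneys and 7.35 ± 0.16 in control kidneys (SD, n = 4 each). The change was -0.32 ± 0.08 (SE; 95% interval -0.52 to -0.13), or 0.798 times the control level (adjusted p = 0.0156, limma). The 19-base and 18-base probes gave -0.31 ± 0.09 and -0.37 ± 0.11 (SE, log2). This was the least secure of the 3 calls. Before any scaling the processed signals overlapped, at 129 to 141 in db/db and 137 to 168 in control kidneys, and the call was lost with no scaling (change -0.20, adjusted p = 0.0740, limma) and with spike-in scaling (change -0.14, adjusted p = 0.0778, limma). Both settings shift every miRNA together: once the median change was subtracted, mmu-miR-199a-5p stood at -0.30 in each of them and as reported. This equality follows from such a shift and does not show which scaling is right.

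The paralog mmu-miR-199b-5p, from the hairpin within Dnm1, had scaled signals of 186, 199.1, 194 and 209 in db/db replicates 1 to 4, against 248, 227, 203 and 209 in control replicates 1 to 4. The groups overlapped, with db/db replicate 4 level with control replicate 4 and above control replicate 3. Log2 signal was 7.62 ± 0.07 in db/db kidneys and 7.79 ± 0.13 in control kidneys (SD, n = 4 each). The change of -0.17 ± 0.07 (SE) did not pass (adjusted p = 0.0962, limma). Its 95% interval, unadjusted for the number of tests, ran from -0.33 to -0.00064, so a fall as large as that of mmu-miR-199a-5p was within it. Compared directly within arrays, as given below, mmu-miR-199b-5p changed less than mmu-miR-199a-5p. The sign of the change of mmu-miR-199b-5p depended on the scaling: without scaling it changed by -0.04, and when scaled to the spike-ins by 0.01. Both of these move all miRNAs alike, the median of all tested miRNAs being 0.10 and 0.16. Relative to that median mmu-miR-199b-5p lay at -0.14 in both and as reported, which follows from such a shift. It was called lower in 4 of the 23 alternatives, among them quantile normalization (change -0.27, adjusted p = 0.00465, limma) and the authors' deposited value table (change -0.21, adjusted p = 0.0494, limma).

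**Figure D1:**
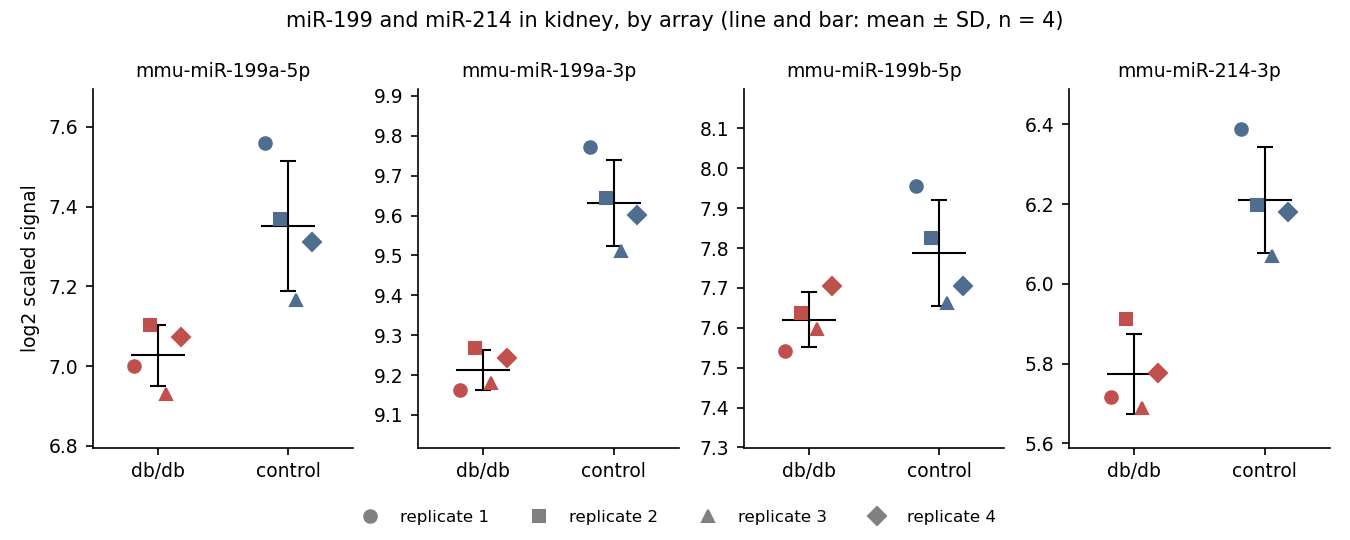
Log2 scaled signal of the 4 detected miRNAs on each array, with db/db (red) left of control (blue), 1 symbol per replicate, and the mean with SD (n = 4 each). The db/db samples lie below all controls for mmu-miR-199a-5p, mmu-miR-199a-3p and mmu-miR-214-3p, and overlap the controls for mmu-miR-199b-5p. Each panel spans the same height on the log2 scale.

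Groups without overlap and with db/db lower were found for 3 of the 4 detected miRNAs, and for 16.8% of all tested miRNAs. By size of change, mmu-miR-214-3p, mmu-miR-199a-3p and mmu-miR-199a-5p took places 30, 31 and 38 among the 55 miRNAs called lower. Their falls were thus smaller than the median of those 55, which was -0.47 on the log2 scale. By p-value they took places 22, 12 and 37.

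**Figure D2:**
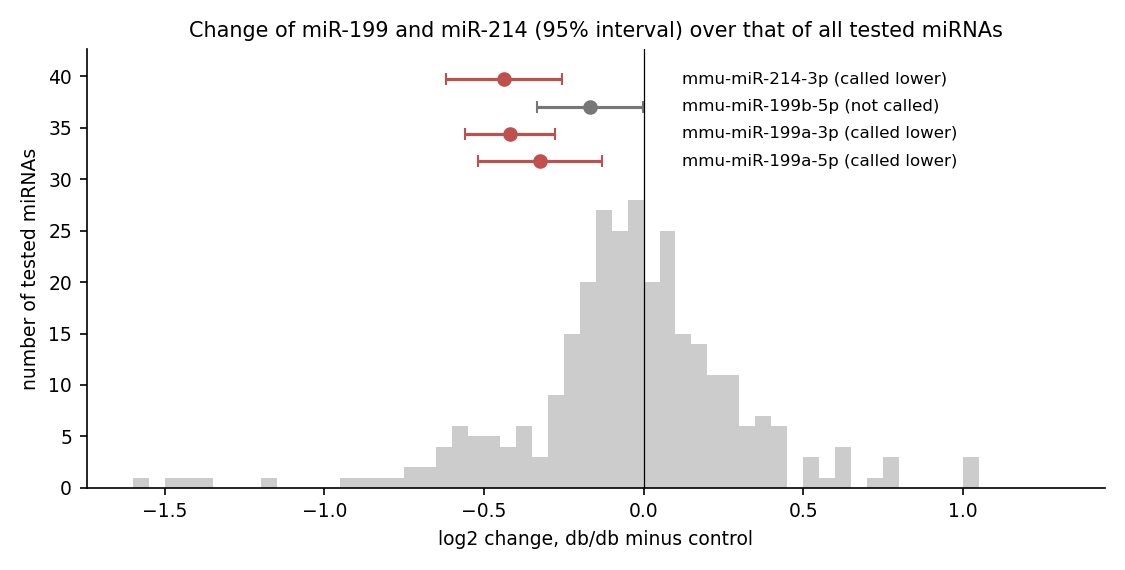
Log2 change, db/db minus control, of the 4 detected miRNAs (points with 95% intervals from limma, red where called lower) above a histogram of the changes of the tested miRNAs. The histogram shows 300 of the 316 tested miRNAs, and the other 16 lie beyond the plotted range. The 3 called miRNAs, at -0.44, -0.42 and -0.32, lie in the lower tail, and mmu-miR-199b-5p at -0.17 lies within the central part.

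Whether the 4 detected miRNAs fell equally was asked within arrays, where the scaling of the array cancels. For each of 6 pairs the log2 difference between the miRNAs was compared between the groups by exact permutation of the group labels (70 assignments, 2-sided), for which 0.0286 is the smallest p. Between mmu-miR-199a-3p and mmu-miR-214-3p the change differed by 0.02 ± 0.03 (SE; p = 0.571, exact permutation test), and the groups overlapped. The sign depended on the signal used: with normexp background correction the difference was -0.12 and passed (adjusted p = 0.0343, exact permutation test). Of these miRNAs, mmu-miR-199a-3p can come from 3 loci, 1 of them in Dnm3os, and mmu-miR-214-3p from the Dnm3os locus alone.

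As reported, the row of mmu-miR-199b-5p changed less within arrays than each of the other 3. Its within-array difference from mmu-miR-199a-3p, taken as mmu-miR-199a-3p minus mmu-miR-199b-5p, was 1.59 ± 0.04 in db/db kidneys and 1.84 ± 0.04 in control kidneys (SD, n = 4 each), a difference in change of -0.25 ± 0.03 (SE). Against mmu-miR-214-3p, with mmu-miR-199b-5p first, the difference in change was 0.27 ± 0.05, and for mmu-miR-199a-5p minus mmu-miR-199b-5p it was -0.16 ± 0.04 (SE). In all 3 the groups did not overlap and the p was 0.0286, the smallest the exact permutation test can give, or 0.0429 after adjustment over the 6 pairs. The same p was reached by mmu-miR-199a-5p minus mmu-miR-214-3p, where mmu-miR-199a-5p fell less, by 0.11 ± 0.03 (SE). With normexp background correction that difference was 0.0073 and did not pass (adjusted p = 0.771, exact permutation test). The arms of miR-199a differed by 0.09 ± 0.03 (SE), mmu-miR-199a-5p minus mmu-miR-199a-3p, and did not pass (p = 0.0571, adjusted p = 0.0686, exact permutation test). With normexp that pair passed, at 0.13, and mmu-miR-199b-5p minus mmu-miR-214-3p was smaller, at 0.11, and still passed (adjusted p = 0.0343 for both, exact permutation test). With quantile normalization, which changes the ratios within an array, none of the 6 pairs passed (adjusted p from 0.0857 to 0.514, exact permutation test). The differences involving mmu-miR-199b-5p were then -0.13, 0.20 and -0.078, in the same directions. How often pairs of other tested miRNAs separate the groups was not counted, so such separation is not shown to be particular to these pairs.

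**Figure D3:**
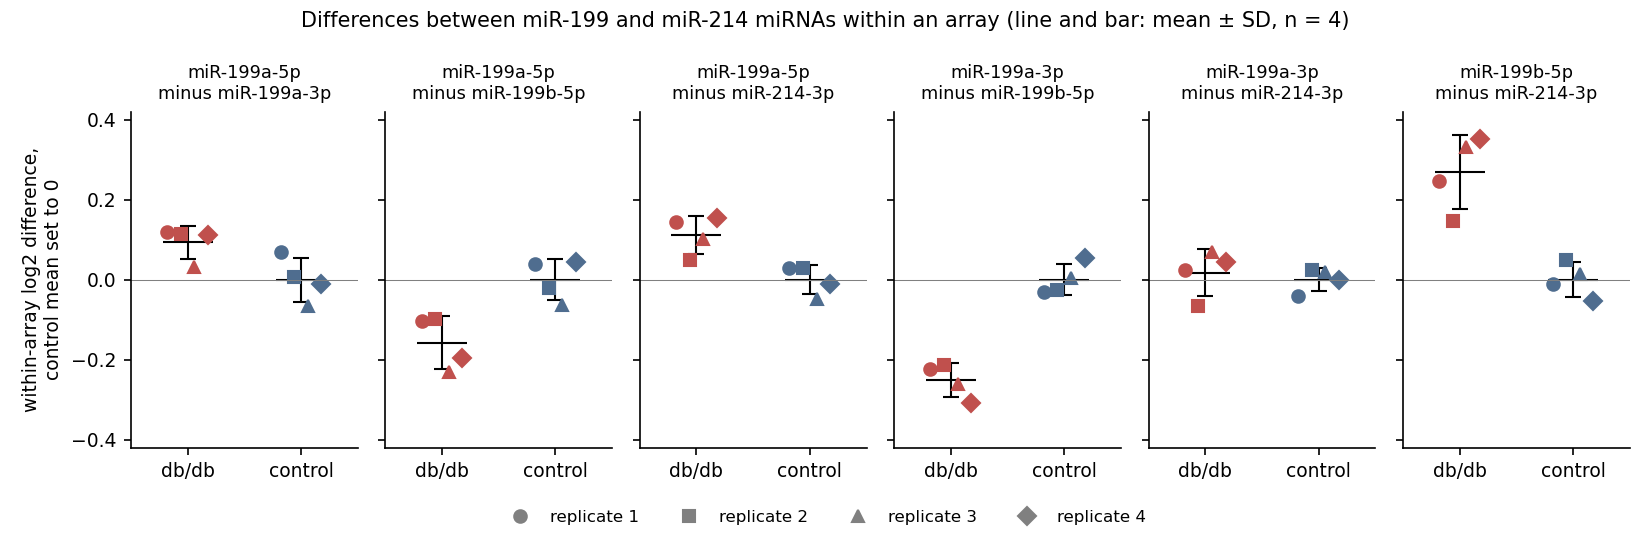
Within-array log2 difference for each of the 6 pairs of detected miRNAs, shifted so that the control mean is 0, with db/db (red) left of control (blue), 1 symbol per replicate, and the mean with SD (n = 4 each). The 3 pairs with mmu-miR-199b-5p and the pair of mmu-miR-199a-5p and mmu-miR-214-3p show no overlap, while mmu-miR-199a-3p minus mmu-miR-214-3p stays near 0 in both groups.

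The 4 detected miRNAs ranked the control samples alike, with replicate 1 the highest and replicate 3 the lowest for all 4. The db/db samples were not ranked alike: replicate 2 was the highest for all except mmu-miR-199b-5p, where replicate 4 was, and the lowest was replicate 3 for mmu-miR-199a-5p and mmu-miR-214-3p but replicate 1 for mmu-miR-199a-3p and mmu-miR-199b-5p. The samples also differ in their scaling: the 75th percentile used for it was 338 on control replicate 1, the lowest of all arrays, against 364.5 to 406 on the other controls and 380 to 425 on the db/db arrays. Without control replicate 1 the changes were -0.38 for mmu-miR-214-3p, -0.37 for mmu-miR-199a-3p and -0.26 for mmu-miR-199a-5p, and all 3 remained called (adjusted p = 0.00378, 0.00153 and 0.0199, limma).

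Of the tested miRNAs outside the family, those with profiles closest to the mean of the 4 were named by the root mean square difference over the 8 arrays, after each log2 profile was centred on its own mean. They were mmu-miR-202-3p at 0.051, mmu-miR-6965-5p at 0.059, mmu-let-7a-1-3p at 0.062, mmu-miR-3473g at 0.064, mmu-miR-674-3p at 0.073 and mmu-miR-1904 at 0.074. The median over all non-members was 0.215. On the same scale the 4 miRNAs themselves lay at 0.026 for mmu-miR-199a-5p, 0.045 for mmu-miR-199a-3p, 0.059 for mmu-miR-214-3p and 0.091 for mmu-miR-199b-5p, so that 3 of them, though part of the mean, were among the closest. The 6 named had changes between -0.23 and -0.33, and 5 of them were called lower, beside 17.4% of all tested miRNAs. The profiles hold the group difference, so lower levels in db/db kidneys follow from how the 6 were chosen and are no separate result. All profiles share the scaling of each array.

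Because Mir199a-2 and Mir214 lie within Dnm3os, the promoter of that gene is shown, although miR-199a can also come from other loci. It spans 250 bases before to 50 after the annotated start, on the plus strand, at chr1:162217373-162217672 (RefSeq, GRCm38.p6), with matches to the E-box CANNTG in capitals. This palindromic motif reads the same on both strands, and Twist1, a mesenchymal factor known to activate Dnm3os in mice, binds E-boxes.
Dnm3os promoter: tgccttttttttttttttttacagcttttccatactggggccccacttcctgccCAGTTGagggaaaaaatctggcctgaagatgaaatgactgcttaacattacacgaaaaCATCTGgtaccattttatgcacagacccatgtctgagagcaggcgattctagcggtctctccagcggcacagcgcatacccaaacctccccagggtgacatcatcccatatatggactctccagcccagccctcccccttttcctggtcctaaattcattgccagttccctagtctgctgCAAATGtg
The window holds 3 matches, and none of them overlaps another. Of 32851 promoter windows of the same length, 72.3% hold at least 1 match and 17.6% hold 3 or more. Dnm3os itself was not measured by this array.

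The miRNAs of smooth muscle and pericytes, another stromal group of the kidney, were set beside miR-199 and miR-214. Neither of the 2 tested passed: mmu-miR-143-3p changed by -0.04 ± 0.06 and mmu-miR-145a-5p, from the same cluster, by -0.06 ± 0.08 (SE, log2; adjusted p = 0.564 and 0.496, limma). The other 3 of the list, among them mmu-miR-145b, were detected on no array. The summed scaled signal of the list was 461 to 518 in db/db kidneys and 461 to 528 in control kidneys. In whole tissue, fewer cells of a type and less miRNA per cell cannot be told apart.

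Of 13 miRNAs reported to promote fibrosis, apart from miR-199 and miR-214, 5 were tested, of which 1 rose and 1 fell, with a median change of 0.03, against -0.02 for all tested miRNAs. mmu-miR-34a-5p, which p53 induces, was higher by 0.64 ± 0.09 and mmu-miR-132-3p, induced by CREB, fell by 0.75 ± 0.13 (SE, log2). Of these 2, mmu-miR-132-3p was detected on only 3 of the 4 db/db arrays. mmu-miR-212-3p, from the same cluster as miR-132, changed by -0.23 ± 0.09, and mmu-miR-21a-5p, abundant in injured and fibrotic kidney, by 0.15 ± 0.06 (SE, log2; adjusted p = 0.0711 and 0.0828, limma). Of 16 tested miRNAs reported to restrain fibrosis, 4 rose and 1 fell, with a median change of 0.07. Of all tested miRNAs 24.4% were called higher and 17.4% lower, so the share of this list that rose was near that of all miRNAs. Those that rose include mmu-miR-204-5p of tubular epithelium, by 1.05 ± 0.04, mmu-miR-200c-3p, a repressor of the ZEB factors, by 0.42 ± 0.08, and mmu-miR-30c-5p, which targets CTGF, by 0.26 ± 0.05 (SE, log2). The one that fell was mmu-miR-146a-5p, an NF-kB feedback miRNA, with a change of -1.49 ± 0.13 (SE, log2).

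Markers of other cell types also differed between the groups. Of 6 tested leukocyte miRNAs 5 fell and none rose, beside the 17.4% of all tested miRNAs called lower, with a median change of -0.99. Their summed scaled signal was 258 to 353 in db/db kidneys and 532 to 693 in control kidneys, without overlap. Examples are mmu-miR-142a-5p, of blood cells in general, with -1.43 ± 0.19, mmu-miR-150-5p, of lymphocytes, with -1.39 ± 0.16, mmu-miR-223-3p, of myeloid cells, with -0.83 ± 0.09, and mmu-miR-342-3p with -0.51 ± 0.05 (SE, log2). Of these, mmu-miR-150-5p was detected on all 4 control arrays but on only 1 of the 4 db/db arrays, so the size of its fall is uncertain. The liver list was led by mmu-miR-122-5p, detected on all db/db arrays and at the floor on every control array, with a summed signal of 53.0 to 136 in db/db kidneys, against 5.60 in control kidneys, which is the sum of its 2 miRNAs set to the floor and no measured signal. Of 8 tested tubule miRNAs 3 rose and none fell, beside the 24.4% of all tested miRNAs called higher, with a median of 0.14 and summed signals of 12380 to 12810 in db/db and 11170 to 11740 in control kidneys. Besides mmu-miR-204-5p these were mmu-miR-30a-3p, with 0.30, and mmu-miR-30a-5p, with 0.17, while mmu-miR-190a-5p, with 0.20, did not pass (adjusted p = 0.0567, limma). The 4 endothelial miRNAs, none of which passed, had a median of -0.03, with -0.11 for mmu-miR-126a-3p, -0.15 for mmu-miR-126a-5p, 0.08 for mmu-miR-221-3p and 0.04 for mmu-miR-222-3p. Neither of the 2 tested erythroid miRNAs passed, mmu-miR-144-3p with 0.53 ± 0.66 and mmu-miR-451a with 0.27 ± 0.61 (SE, log2). The part of these cell types in the change of miR-199 and miR-214 was not tested.

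**Figure D4:**
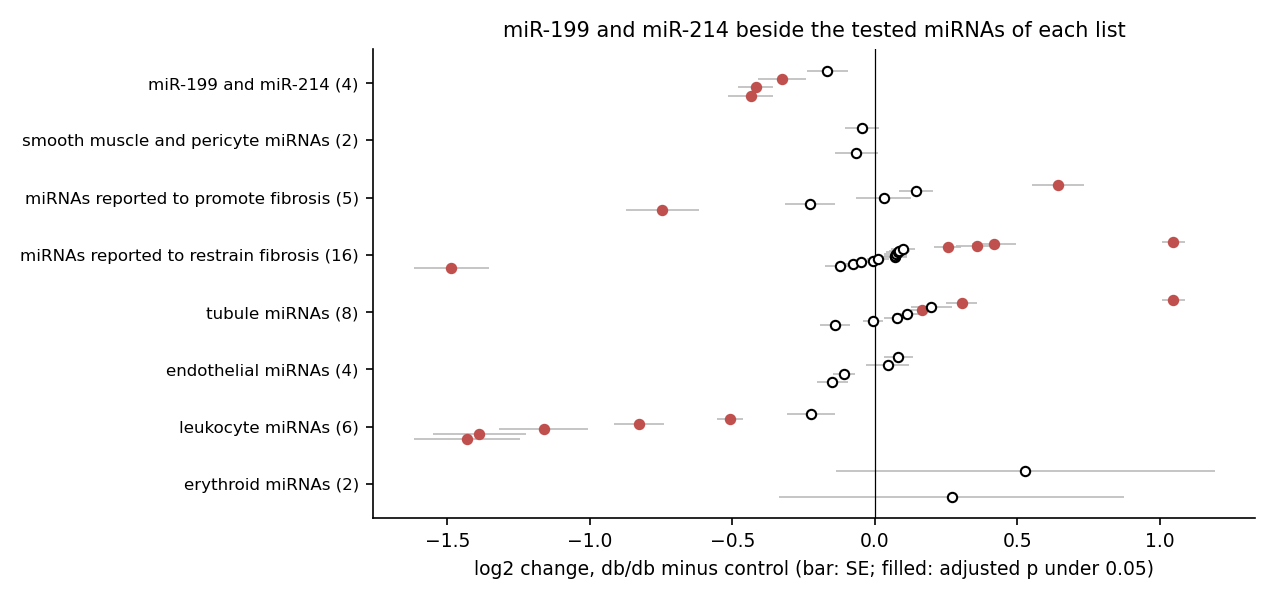
Log2 change, db/db minus control, of each tested miRNA with its SE, for miR-199 and miR-214 (top row) and for each list, with the number tested in brackets and filled points at an adjusted p under 0.05. The smooth muscle and pericyte miRNAs sit at -0.04 and -0.06, the leukocyte miRNAs between -1.43 and -0.22, and miR-199 and miR-214 between -0.44 and -0.17. The liver list, with mmu-miR-122-5p alone tested, is not drawn.

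The calls of mmu-miR-199a-3p and mmu-miR-214-3p held in 22 of 23 alternatives each, and that of mmu-miR-199a-5p in 19. When all 1881 miRNAs entered the 75th percentile, none of the 5 was called. That percentile lay at signals of 2.32 to 4.14 in processed units, near the floor of 2.80 scaled units, and the SE of each change rose to 0.25.

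**Figure D5:**
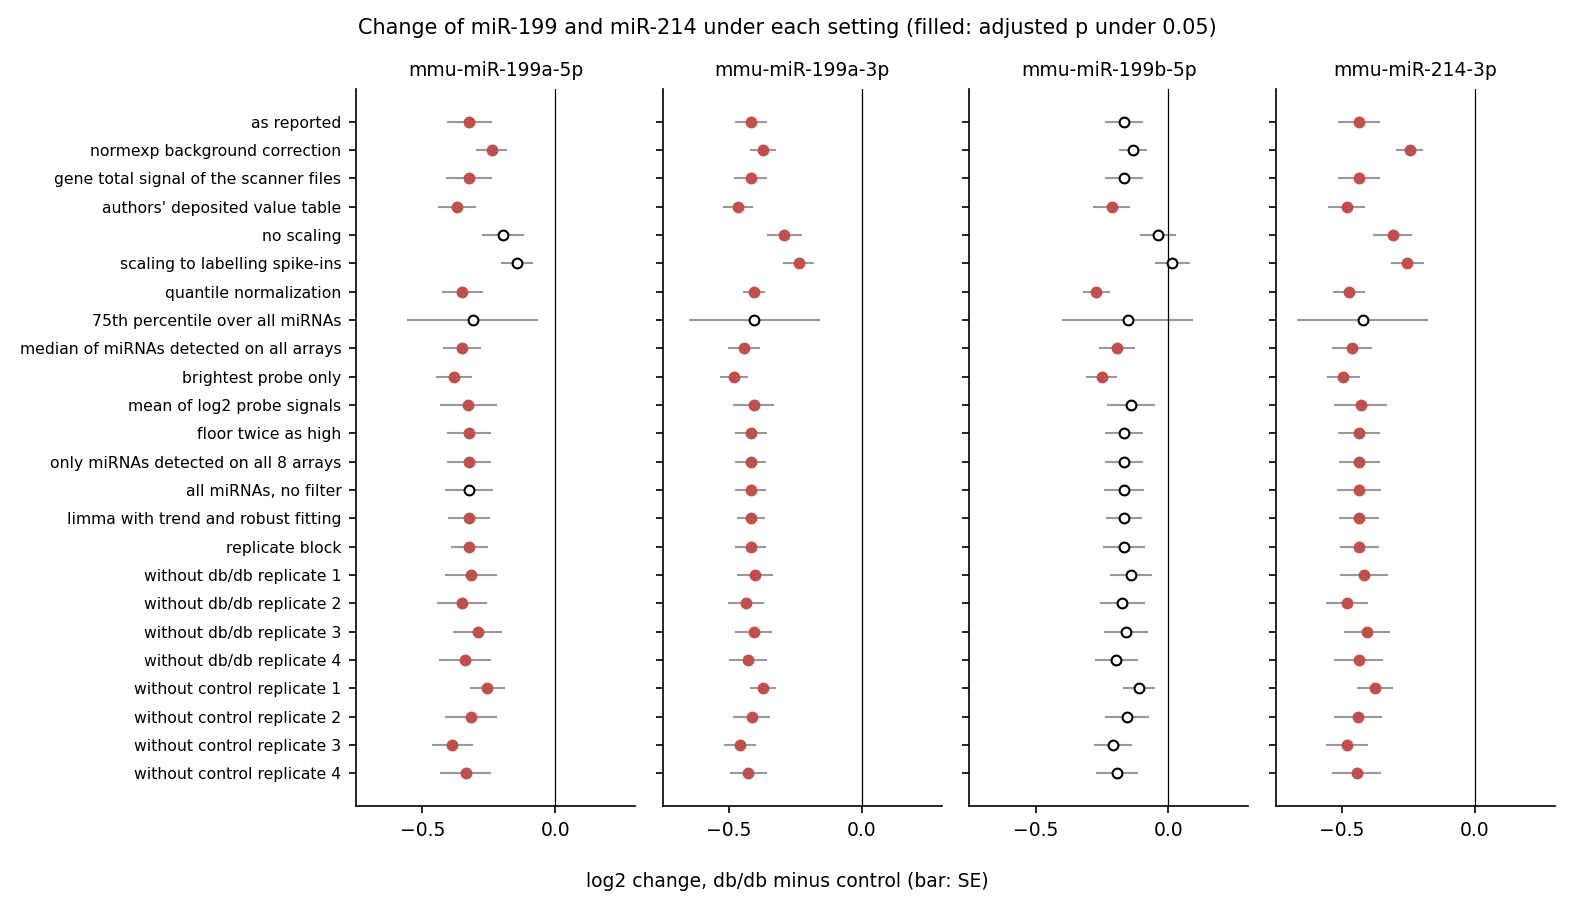
Log2 change, db/db minus control, of the 4 detected miRNAs under the reported setting and 23 alternatives, with bars of 1 SE and filled points where the adjusted p was under 0.05. Points of mmu-miR-199a-3p, mmu-miR-214-3p and mmu-miR-199a-5p lie below 0 in every row, between -0.50 and -0.14, and those of mmu-miR-199b-5p between -0.27 and 0.01.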

How the data were processed

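Total RNA, 100 ng per sample, was labelled with Cy3 and hybridised to 1-colour Agilent miRNA arrays, per the labels' protocols. The spot intensity values that the authors deposited came from Agilent Feature Extraction, version 12.0.3.1 in the submitters' processing notes. Spatial detrending was on for all 8 arrays, background correction was off, and the probe mappings use mm9, per the file headers. The authors also deposited a value table, whose values are a linear ratio per array. Across miRNAs its log2 changes had a correlation of 1 with those of the gene total signal, so higher means more signal. The per-miRNA and per-array divisors behind its centring and scale are not given in the sources used here. Its column medians were 0.857, 1.01, 0.994 and 0.947 in db/db replicates 1 to 4 and 1.11, 1.10, 1.10 and 0.980 in control replicates 1 to 4. It served as an alternative only.

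Outlier spots were left out, processed signals were averaged per probe and then, still linear, per miRNA, and each array was multiplied by a factor that gave all arrays 1 common 75th percentile across the 269 miRNAs that every array detected. The floor was 2.80, found by taking each array's dimmest detected miRNA after scaling and then the median of these. Lower values were set to it before log2 was taken. No miRNA spot was saturated. limma 3.58.1 (lmFit and eBayes, R 4.3.3) was fitted to all 316 tested miRNAs, db/db minus control, with Benjamini-Hochberg adjustment over all 316, 2-sided. No list was given a set test. The steps were tested on simulated data. The number of arrays limits the precision. The miRNAs described, the lists and the tests were chosen with earlier results of these data known. By rule, the text names all 5 miRNAs, detected seed relatives, every tested smooth muscle and pericyte miRNA, up to 4 tested miRNAs of each other list (called ones first, then by p) and the 6 non-members closest in profile. mmu-miR-761, undetected, was named outside it. The 23 alternatives changed signal, scaling, probe summary, floor, filter, test or block, or left out 1 array. Leaving out arrays for the pairs was added after the data were seen. The comparison of replicate numbers found no clear pairing and is given with the alternatives.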

Additional observations from a re-analysis of the deposited data

How the results depend on the processing

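The direction of mmu-miR-199a-5p, mmu-miR-199a-3p and mmu-miR-214-3p was the same in all 23 alternatives. Those that changed only the floor, filter, test or block left these estimates as they were, so their direction could not differ. The call of mmu-miR-199a-5p was lost with no scaling (change -0.20), with spike-in scaling (-0.14), with no filter (-0.32, adjusted p = 0.146 by limma over 1881 miRNAs instead of 316) and with the 75th percentile over all miRNAs (-0.31). Under that last setting mmu-miR-199a-3p (-0.40) and mmu-miR-214-3p (-0.42) lost theirs too, and the number of the 5 miRNAs called lower was 0. mmu-miR-199b-5p became called lower in the authors' deposited value table (-0.21) and with quantile normalization (-0.27). The same held with scaling to the median (-0.19) and with the brightest probe only (-0.25). Relative to the median change of all tested miRNAs, it lay at -0.14 as reported and with scaling to the median. It lay at -0.13 in the value table, -0.18 with the brightest probe only and -0.21 with quantile normalization. Under the reported scaling its brighter probe changed by -0.18. Why the call was gained was not tested. With any 1 array left out the number called lower stayed at 3, with changes of -0.39 to -0.26 for mmu-miR-199a-5p, -0.46 to -0.37 for mmu-miR-199a-3p, -0.48 to -0.38 for mmu-miR-214-3p and -0.21 to -0.11 for mmu-miR-199b-5p.

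Over all tested miRNAs, the number called lower was 55 as reported, 28 with no scaling, 28 with spike-in scaling, 11 with the 75th percentile over all miRNAs, 88 with the brightest probe and 27 with no filter. The number called higher was 77 as reported, 139 with spike-in scaling and 23 with the 75th percentile over all miRNAs, and the brightest probe put 40.9% of called miRNAs higher.

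Among pairs, normexp background correction, whose offset of 50 shrinks changes of dim miRNAs, turned mmu-miR-199a-3p minus mmu-miR-214-3p from 0.02 to -0.12, past the threshold, took mmu-miR-199a-5p minus mmu-miR-214-3p to 0.0073 and out of the call, and brought mmu-miR-199a-5p minus mmu-miR-199a-3p, at 0.13, past it. Quantile normalization ended the calls of mmu-miR-199a-5p minus mmu-miR-199b-5p (-0.078), mmu-miR-199a-5p minus mmu-miR-214-3p (0.12), mmu-miR-199a-3p minus mmu-miR-199b-5p (-0.13) and mmu-miR-199b-5p minus mmu-miR-214-3p (0.20). With 1 array left out the pairs were not tested. Only values were compared, and each kept its direction.

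No clear pairing by replicate number was seen: the deviations of same-numbered arrays from their group means correlated between -0.43 and 0.41 across miRNAs. Only db/db replicate 2, at 0.41, correlated most with the control of its own number. With the replicate block, which is also the slide column, mmu-miR-199a-5p, mmu-miR-199a-3p and mmu-miR-214-3p kept their calls (adjusted p = 0.0242, 0.00892 and 0.0120 by limma), and 63 miRNAs were called lower and 81 higher. mmu-miR-214-5p, undetected, has no tested value to compare. Signals near background limit what can be said of it.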

Other observations

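Before scaling, control replicate 4 had the highest processed signal of all 8 arrays for each of the 4 detected miRNAs, with 168 for mmu-miR-199a-5p, 820 for mmu-miR-199a-3p, 220 for mmu-miR-199b-5p and 76.6 for mmu-miR-214-3p. After scaling it lay below control replicates 1 and 2 for each. Without any scaling mmu-miR-199a-3p lay between 609 and 633 in db/db kidneys and between 696 and 820 in control kidneys, and mmu-miR-214-3p between 54.5 and 59.5 in db/db and between 64.1 and 76.6 in control kidneys, so that for these miRNAs the groups did not overlap before scaling either. For mmu-miR-199b-5p the unscaled ranges were 197 to 216 in db/db and 193 to 220 in control kidneys.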
